A study of Mus musculus with 48 samples.

Results

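The genes described here were 10 listed genes of cartilage matrix and of the synovial lining, *Cytl1*, *Comp*, *Acan*, *Prg4*, *Cilp*, *Cilp2*, *Chad*, *Fmod*, *1500015O10Rik*, and *Clu*. They were matched by symbol among the 34586 genes of the deposited table, and all 10 were found. Seq-Well, which isolates each cell with a barcoded bead and counts its transcripts as unique molecular identifiers (UMIs), had been applied to joint, lung, muscle, skin, and spleen of 10 male DBA1/J mice, 8-12 weeks old by the study's methods. CIA mice had received 100 µg of bovine collagen II in complete Freund's adjuvant intradermally near the tail base and a booster in incomplete adjuvant on day 20, and healthy mice had received PBS. The joint samples, whole knee joints digested with collagenase, came from 3 healthy mice (H3, H4, and H7) and 5 CIA mice (S1, S3, S5, S6, and S8). The arthritis score was 8 in S1 and S3, 4-5 in S5, 3-4 in S6, and 2-3 in S8. The sample names carry the tag 2CIA for H3, S1, and S3 and the tag CIA for the other joint mice, so that among CIA mice the tag and the score cannot be told apart, and the tag 2CIA holds only 1 healthy joint and was not fitted alone. Each sample came from 1 mouse, and the p-values below measure the spread between mice.

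Articular cartilage resists load through aggrecan, the large proteoglycan encoded by *Acan*, which is held in a network of type II collagen, and several smaller matrix proteins link the network together. The surface of cartilage and the synovial lining are lubricated by lubricin, the product of *Prg4*, which is made by lining fibroblasts and by superficial chondrocytes. *Comp* and *Cilp* are also made in tendon and ligament, which a digested knee contains, and *Clu* encodes clusterin, a secreted chaperone that many cell types make. In arthritis, cartilage is lost and the synovium thickens, so that the mixture of cells released from a joint can change together with the RNA of each cell. When UMIs are summed over the cells of a mouse, fewer cells of a kind and less RNA per cell cannot be told apart.

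On the mouse genome GRCm38, *Cytl1* lies on chromosome 5 (37735519-37739820, plus strand), *Acan* on chromosome 7 (79053483-79115099, plus strand), *Cilp* on chromosome 9 (65265180-65280605, plus strand), and *Clu* on chromosome 14 (65968483-65981547, plus strand). *Comp* (70373558-70382066, plus strand) and *Cilp2* (69880369-69887687, minus strand) both lie on chromosome 8. *Fmod* (134037254-134048277, plus strand), *Prg4* (150449412-150466165, minus strand), and *1500015O10Rik* (43730602-43742578, plus strand) lie on chromosome 1, and *Chad* lies on chromosome 11 (94565047-94569127, plus strand). *Prg4* overlaps *Tpr*, *Chad* overlaps *Acsf2*, and *1500015O10Rik* overlaps the antisense gene *Gm29155*, each on the opposite strand. Whether strand was used in counting is not given in the sources used here, so the values of these 3 genes are uncertain to that extent.

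The start regions of *Cytl1*, of *Chad*, and of *1500015O10Rik* are shown because *Cytl1* was the member past the threshold in joint fibroblasts and the other 2 had, in healthy fibroblasts, the highest Jaccard overlap of holding cells with *Cytl1* (*1500015O10Rik*) and with *Clu* (*Chad*), a measure defined with the pairs of genes. Each runs from 250 bases before to 50 bases after the start of the RefSeq gene on GRCm38.p6, plus strand, and capitals mark the letters TATAAA. RefSeq entries were matched for 7 of the 10 genes, *1500015O10Rik* under the symbol *Ecrg4*.
Cytl1, chr5:37735269-37735568: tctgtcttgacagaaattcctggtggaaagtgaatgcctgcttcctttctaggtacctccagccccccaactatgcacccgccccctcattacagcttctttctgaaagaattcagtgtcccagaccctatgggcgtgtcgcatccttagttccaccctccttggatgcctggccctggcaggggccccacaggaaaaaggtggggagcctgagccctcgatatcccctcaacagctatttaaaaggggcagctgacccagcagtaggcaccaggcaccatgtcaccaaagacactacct
Chad, chr11:94564797-94565096: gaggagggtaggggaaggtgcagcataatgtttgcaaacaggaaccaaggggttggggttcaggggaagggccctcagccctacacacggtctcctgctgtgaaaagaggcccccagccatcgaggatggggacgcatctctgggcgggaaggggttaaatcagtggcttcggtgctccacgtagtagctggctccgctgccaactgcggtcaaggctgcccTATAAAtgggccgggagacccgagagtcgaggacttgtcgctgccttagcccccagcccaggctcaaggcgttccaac
1500015O10Rik, chr1:43730352-43730651: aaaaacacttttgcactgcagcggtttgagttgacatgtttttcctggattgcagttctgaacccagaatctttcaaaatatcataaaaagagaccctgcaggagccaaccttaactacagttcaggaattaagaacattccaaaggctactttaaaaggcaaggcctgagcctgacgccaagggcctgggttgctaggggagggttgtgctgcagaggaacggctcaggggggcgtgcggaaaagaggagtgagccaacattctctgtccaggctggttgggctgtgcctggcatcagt
The TATA box letters TATAAA were searched on both strands of the 7 windows, and the 1 match, in *Chad*, began 28 bases before the gene start. Among 32851 promoter windows of the same length, 13.62% held these letters. The AP-1 motif, written TGANTCA with N for any base, had no match in the 7 windows, and 7.808% of all windows held it. The Sox motif was written ACAATG and had no match either, and 12.57% of all windows held it. A match describes letters, not a site in use.

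The joint samples held 2230 annotated cells with 2470453 UMIs. The cell types used here were the authors' labels, and 603 joint cells were labelled fibroblasts, from 38 to 182 per mouse in H3, H4, H7, S1, S3, and S5 but 9 in S6 and 4 in S8, which entered no fit of fibroblasts. The fibroblasts of a mouse held 38642 to 282053 UMIs in those 6 mice. Their summed level of the 8 fibroblast markers was 25516 to 41851 CPM (the UMIs of a gene scaled to a total of 1000000 UMIs in the same cells) in healthy mice and 19204 to 56564 CPM in the 5 CIA mice. No chondrocyte label was among the cell types. In the cells labelled fibroblasts, *Col2a1*, the type II collagen gene of cartilage, was held by 4 of 192 healthy cells and 34 of 411 CIA cells. Of all cell barcodes, 59 occurred in more than 1 library, of which 2 were shared by joint libraries.

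Most UMIs of each of the 10 genes were counted in the joint and, within the joint, in cells labelled fibroblasts. Of the UMIs in annotated cells of all organs, the joint held 96.9% for *Chad*, 95.5% for *Acan*, 94.7% for *Comp*, 94.7% for *1500015O10Rik*, 92% for *Fmod*, 91.5% for *Prg4*, 88.1% for *Cytl1*, 86.5% for *Cilp2*, 81.5% for *Cilp*, and 76.3% for *Clu*. Of the UMIs in the joint, fibroblasts held from 85.7% for *Prg4* to 96% for *1500015O10Rik*. The number of joint fibroblasts with at least 1 UMI was 332 for *Prg4*, 276 for *Comp*, 143 for *Fmod*, 128 for *1500015O10Rik*, 90 for *Clu*, 82 for *Cilp*, 53 for *Acan*, 42 for *Chad*, 41 for *Cilp2*, and 33 for *Cytl1*. All 10 were thus detected in a minority of these cells except *Prg4*.

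For the genes other than *Cytl1*, the interval of the share of fibroblasts with a UMI did not overlap the intervals of T cells, macrophages, or granulocytes of the same joints, which should lack matrix transcripts. The share was 55.1% of fibroblasts for *Prg4* (exact 95% binomial interval 51%-59.1%) at a median of 965 UMIs per cell, against 16.1% of 161 T cells at 826 UMIs, 11.2% of 304 macrophages at 819 UMIs, and 10% of 759 granulocytes at 830 UMIs. For *Comp* it was 45.8% of fibroblasts against 4.35% of T cells. These intervals cover counting error only. *Cytl1* was the exception, since 5.47% of fibroblasts (3.8%-7.6%) and 3.73% of T cells (1.38%-7.93%) held it, and the intervals overlapped. Its UMIs numbered 368 in fibroblasts and 6 in T cells, the latter each in a different cell. The pooled share for *Cytl1* is thus read as near background while its summed level is not. That share describes neither group. In healthy mice 16.1% of 192 fibroblasts and 6.9% of 29 T cells held *Cytl1*, and in CIA mice 0.487% of 411 fibroblasts and 3.03% of 132 T cells. For *Acan*, 8.79% of fibroblasts and 0 of 161 T cells held a UMI, and 0 of 161 cells allows a share of up to 1.86% when 3 counts stand for the 0, or 2.27% as the upper end of the exact interval.

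*Prg4*, *Comp*, *Clu*, and *Fmod* were held more often by cells labelled endothelial than by T cells, macrophages, or granulocytes. For *Prg4* the intervals of endothelial and T cells (10.8%-22.8%) overlapped. The same held for *Comp* (8.64%-17.1% endothelial and 1.77%-8.75% of T cells). For *Fmod* the endothelial interval (2.43%-7.98%) overlapped those of T cells (0.151%-4.42%) and macrophages (0.36%-3.33%). *Prg4* was held by 20.9% of 258 endothelial cells (16.1%-26.4%), *Comp* by 12.4%, and *Clu*, which endothelial cells are known to express, by 11.2%, at a median of 764.5 UMIs per cell. Of 50 cells labelled basal III, at a median of 1085.5 UMIs, 14% held *Comp* and 8% held *Cytl1*, in 7 and 4 cells. The *Prg4* UMIs of the endothelial label were 393 in 23 cells of S5, 59 in 2 cells of S8, 24 in 14 cells of S1, 13 in 9 cells of H3, and from 0 to 5 UMIs in each of H4, H7, S3, and S6. One mouse thus held most of them, and 1 cell of that mouse held 334. Of the 23 cells of S5, 18 also held the fibroblast collagen gene *Col1a2* and 17 held *Col3a1*, while 3 held the endothelial marker *Pecam1* and 2 held *Cdh5*. Of the 76 endothelial cells of S5, those without *Prg4* held the same genes in 31, 38, 12, and 8 cells, so that the collagens were also common where *Prg4* was not detected.

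**Figure D1:**
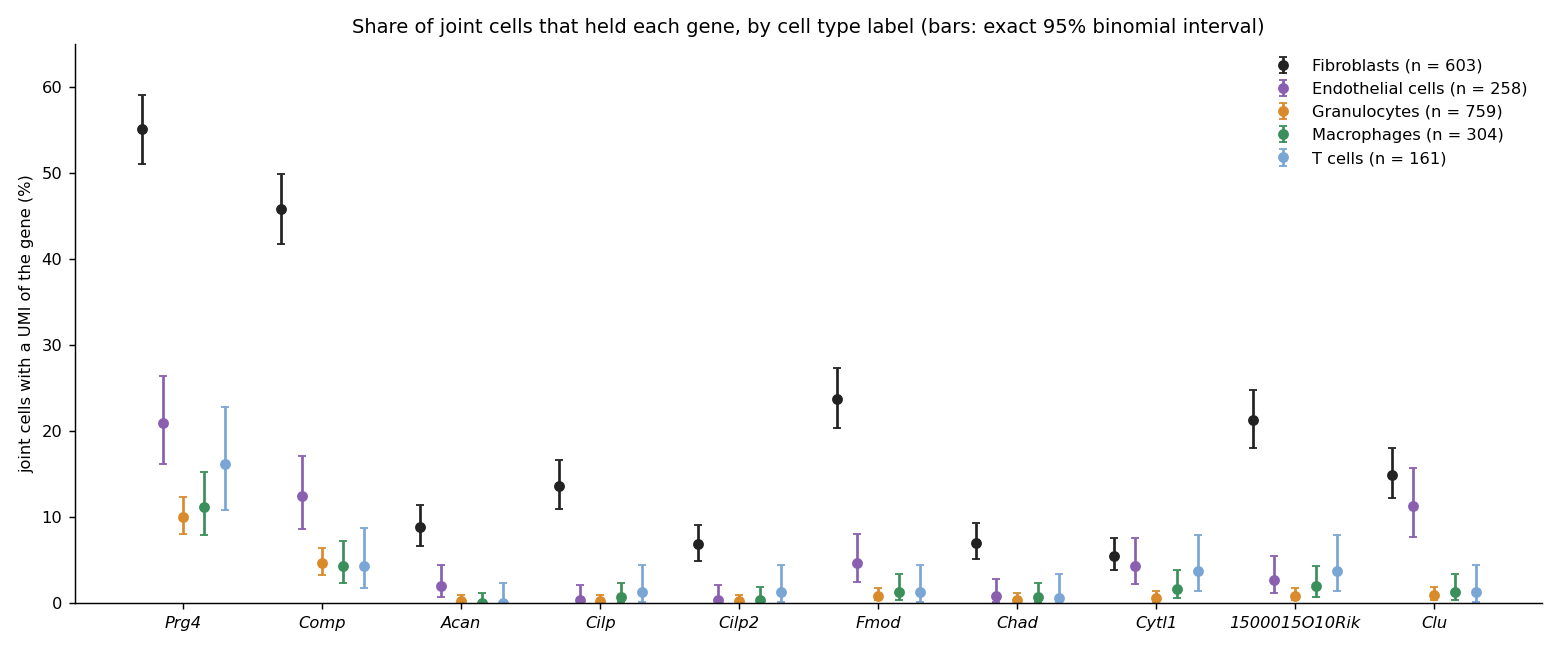
Share of joint cells with at least 1 UMI of each gene (y axis, percent) for 5 cell type labels, all mice together, with exact 95% binomial intervals as bars. Fibroblasts (black) lay above the other labels for most genes, and the intervals of *Cytl1* and *Clu* overlapped those of endothelial cells.

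Depth differed between the groups, so each cell was also thinned to 400 UMIs, a number that all cells reached. The median depth of fibroblasts was 679 to 838 UMIs in the 3 healthy mice and 1020.5 to 1471.5 UMIs in S1, S3, and S5. After thinning, *Prg4* was held by 44.8% of healthy and 38.9% of CIA fibroblasts, against 54.7% and 55.2% before. The same shares for T cells were 20.7% healthy and 6.82% CIA after thinning, against 27.6% and 13.6% before, so that this background was not alike in the groups. *Cytl1* was held by 10.9% of healthy and 0.243% of CIA fibroblasts after thinning, against 16.1% and 0.487% before. *Clu* was held by 16.7% and 7.79%, *Chad* by 9.9% and 2.43%, *Cilp* by 6.25% and 3.41%, *Comp* by 34.4% and 28.2%, and *1500015O10Rik* by 12.5% and 11.4%. The share was higher in CIA cells for *Fmod* (10.4% healthy and 15.8% CIA), *Acan* (1.56% and 4.38%), and *Cilp2* (2.08% and 3.41%). Cells of 1 mouse are not replicates, and these shares carry no test.

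Disease was then compared over mice in joint fibroblasts, 3 healthy mice against the 3 CIA mice with at least 10 such cells. *Cytl1* fell in CIA, while the other 9 genes did not pass the threshold. *Cytl1* encodes a small secreted protein made by chondrocytes and their precursors. It reached 237.4 CPM in H3 (15 UMIs), 882.5 CPM in H4 (57 UMIs), and 5434.5 CPM in H7 (210 UMIs), and 0 UMIs were counted in S1, S3, and S5. The groups did not overlap, and the healthy values themselves spread widely, at 2185 ± 2833 CPM (SD, n = 3). Over the fitted mice of each group, 282 UMIs among 166413 in healthy mice against 0 among 565258 in CIA mice made *Cytl1* at least 319-fold lower, where 3 UMIs over the CIA group stood for the 0. With 1 mouse left out this bound lay between 106-fold, without H7, and 487-fold, without H3, and it was 160-fold without S5 and 198-fold without S1. The adjusted p was 0.0282 in the quasi-likelihood test of edgeR, adjusted by Benjamini-Hochberg over 1014 genes. That test called 17 of the 1014 genes, or 1.68%. *Cytl1* passed the filter on low counts through the healthy mice alone, so a difference followed from its being tested. The exact permutation test over these mice gave p = 0.1, the smallest that 3 against 3 mice allows.

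The call of *Cytl1* rested on few cells and on which mice were counted. In healthy mice, 5 fibroblasts of H3, 11 of H4, and 15 of H7 held it, and 1 cell of H7 held 148 of the 210 UMIs. Of all 33 holding fibroblasts, 15 held 1 UMI, and the 10 cells with most UMIs held 89.1% of the total. Among the mice not fitted, S6 had 86 UMIs in 2 of its 9 fibroblasts, or 4490.2 CPM, and S8 had 0 in 4 fibroblasts. One of these cells of S6 held 85 UMIs of *Cytl1* among 3694, together with 220 of *Prg4*, 22 of *Clu*, and 10 of *Chad*. S6 thus lay in the upper part of the healthy range. The fold bounds above rest on the 0 UMIs of S1, S3, and S5 and do not hold with S6 included. With mice of at least 5 fibroblasts, which adds S6, the adjusted p of *Cytl1* was 0.798 in edgeR's test. It was 0.0646 without H3, 0.0842 without H4, 0.0972 without H7, and 0.0698 with plain library size. The tag CIA leaves 1 fitted CIA mouse, S5, so values within that tag are given without a test.

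*Clu* and *1500015O10Rik* had the next largest fitted differences but did not pass in this fit. *Clu* was at 459 CPM in H3, 3251.4 CPM in H4, and 3700.6 CPM in H7. It was at 349.5 CPM in S1, 14.6 CPM in S3, and 152.5 CPM in S5. The healthy mean was 2470 ± 1756 CPM and the CIA mean 172 ± 168 CPM (SD, n = 3 per group). The groups did not overlap, though H3 and S1 were close, and S6 had 1305.3 CPM. The log2 fold change of CIA over healthy was -3.85 (SE 0.95, adjusted p = 0.0998 in edgeR's test), -2.95 with the tag as a term, and -4.59 in H4 and H7 against S5 alone. Among the alternatives, DESeq2 called *Clu*. *1500015O10Rik* encodes the secreted peptide precursor augurin, which is made by chondrocytes among other cells. It was at 316.5 CPM in H3, 1687.6 CPM in H4, and 7194.2 CPM in H7, and at 694.4 CPM in S1, 102 CPM in S3, and 453.8 CPM in S5. The ranges overlapped, since H3 lay below S1 and S5, with means of 3066 ± 3640 and 417 ± 298 CPM (SD, n = 3 each). Its log2 fold change was -2.87 (SE 0.99, adjusted p = 0.183 in edgeR's test), -1.56 with the tag as a term, and -3.29 in H4 and H7 against S5 alone.

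*Prg4* showed no separation of the groups. It was at 4115 CPM in H3, 5388.1 CPM in H4, and 15449.5 CPM in H7. It was at 1808.2 CPM in S1, 9791.4 CPM in S3, and 4931.7 CPM in S5. Among the mice not fitted it was at 18012.8 CPM in S6 and 3732.9 CPM in S8, so the highest and the lowest value were both of CIA mice. The means of the fitted mice were 8318 ± 6209 and 5510 ± 4023 CPM (SD, n = 3 each). The log2 fold change was -0.63 (SE 0.70, adjusted p = 0.681 in edgeR's test), and without H7 it was 0.07. The cells with most UMIs weighed on these sums, since 1 fibroblast held up to 250 UMIs of *Prg4* and the 10 highest held 38.6% of them.

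Of the cartilage matrix genes, *Comp*, which encodes the cartilage oligomeric matrix protein that binds collagens, was at 728 CPM in H3, 3530.1 CPM in H4, and 2898.4 CPM in H7. In CIA mice it was at 1826.9 CPM in S1, 145.7 CPM in S3, and 1127.4 CPM in S5. The ranges overlapped, with means of 2386 ± 1470 and 1033 ± 845 CPM (SD, n = 3 each) and a log2 fold change of -1.30 (SE 0.81, adjusted p = 0.441 in edgeR's test). *Acan* was at 79.1, 46.4, and 129.4 CPM in H3, H4, and H7 and at 298.3, 14.6, and 138.3 CPM in S1, S3, and S5, from 1 to 64 UMIs per mouse. S1 was highest and S3 lowest, so that the CIA mice enclosed the healthy ones. The filter removed *Acan* and *Cilp2*, and a fit of every gene with at least 1 UMI gave *Acan* a log2 fold change of 1.43 (SE 0.65, adjusted p = 0.646 in edgeR's test).

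The cartilage intermediate layer genes *Cilp* and *Cilp2* encode secreted matrix proteins of cartilage and other connective tissue. *Cilp* was at 158.3, 294.2, and 724.6 CPM in H3, H4, and H7 and at 111.8, 72.9, and 251.7 CPM in S1, S3, and S5. S5 lay above H3, and the log2 fold change was -1.37 (SE 0.62, adjusted p = 0.288 in edgeR's test). *Cilp2* was at 31.7, 170.3, and 25.9 CPM in healthy mice and at 181.8, 0, and 109.9 CPM in CIA mice, on at most 39 UMIs in a mouse. H4, S1, and S5 were high and the other mice low, whatever their group. In the fit of every gene its log2 fold change was 0.74 (SE 0.67, adjusted p = 0.753 in edgeR's test).

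*Fmod* and *Chad* encode small leucine-rich repeat proteins, fibromodulin, which binds collagen fibrils in cartilage and tendon, and chondroadherin, which binds cells and collagen in cartilage. *Fmod* was at 300.7, 387.1, and 310.5 CPM in H3, H4, and H7 and at 899.5, 0, and 772.9 CPM in S1, S3, and S5. S1 and S5 lay above all healthy mice and S3 had 0 UMIs, and the log2 fold change was 0.70 (SE 0.91, adjusted p = 0.731 in edgeR's test). *Chad* was at 79.1, 774.2, and 854 CPM in healthy mice and at 349.5, 0, and 24.8 CPM in CIA mice. H4 and H7 lay above all 3 CIA mice, and H3 lay below S1. Its log2 fold change was -2.15 (SE 1.13, adjusted p = 0.381 in edgeR's test), -2.01 with the tag as a term, and -5.07 in H4 and H7 against S5 alone.

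**Figure D2:**
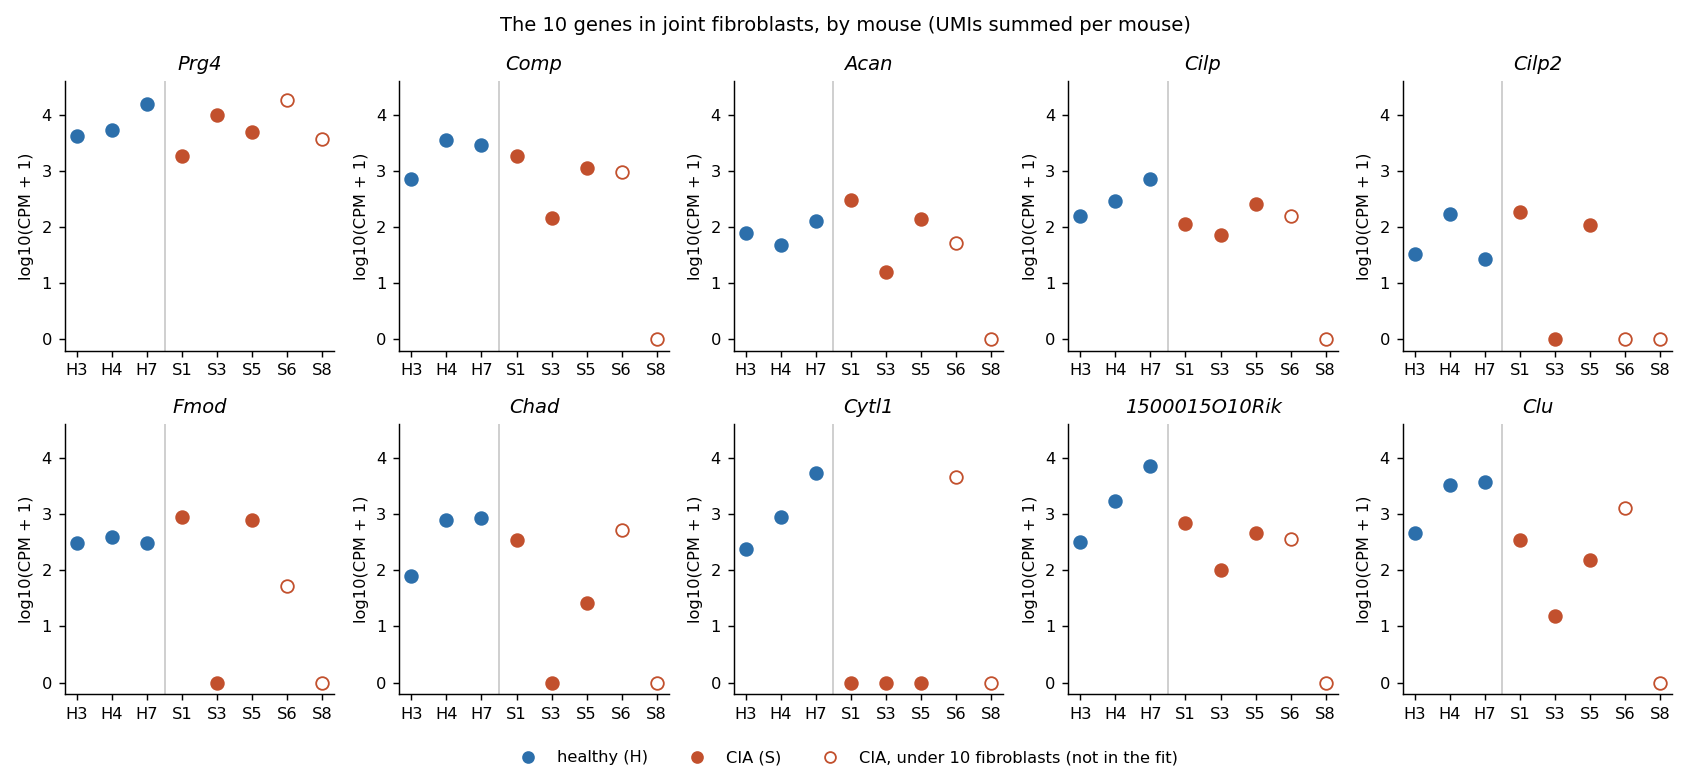
Level of each gene in the fibroblasts of each joint mouse, as log10 of CPM plus 1 (y axis), with healthy mice in blue, CIA mice in red, and open circles for S6 (9 fibroblasts) and S8 (4 fibroblasts), which were not fitted. *Cytl1* was at 0 in S1, S3, and S5 but at 4490.2 CPM in S6, and the levels of several genes were lowest in S3 and S8.

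S3 held the fewest of these transcripts among the fitted mice for 8 of the genes and had 0 UMIs of *Cytl1*, *Cilp2*, *Chad*, and *Fmod*, while its *Prg4* was the highest of the 3 fitted CIA mice. Its 56 fibroblasts held 68632 UMIs, at which a count of 0 allows a level of up to 43.7 CPM. Markers of other cells were also present in the cells labelled fibroblasts, with 0 of the 4 tested granulocyte genes and 0 of the 3 tested haemoglobin genes called. The summed level of the 4 granulocyte markers was 1393 to 5900 CPM in the 3 healthy mice and 3550 to 38988 CPM in the 5 CIA mice, the haemoglobin genes were at 10533 to 108938 CPM and at 3968 to 21772 CPM, where H4 alone was above 21772 CPM, and fibroblasts were 42.2% to 52.8% of annotated joint cells in healthy mice and 4.82% to 44.4% in CIA mice. Of the 4 T cell markers, levels were 0 CPM in healthy mice and at most 10.6 CPM in CIA mice. The part of these, and of depth, in the differences above was not tested.

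Summing all annotated joint cells includes all 8 mice, whatever label their cells carry. In this comparison 3 of 2364 genes, or 0.127%, were called, and 0 of the 7 members that passed the filter, while at an unadjusted p under 0.05 there were 252 genes. The log2 fold changes were -3.62 for *1500015O10Rik* (adjusted p = 0.12), -3.23 for *Clu* (0.126), -2.25 for *Cytl1* (0.571), -2.21 for *Chad* (0.461), -1.89 for *Comp* (0.321), -0.52 for *Prg4* (0.803), and -0.02 for *Fmod* (0.994, and a positive sign in the fit of every gene), all from edgeR's test. The fit of every gene gave -1.62 for *Cilp* (0.441), -0.20 for *Cilp2* (0.921), and 0.67 for *Acan* (0.743). All 10 ranges overlapped between the groups, and the exact permutation test over mice gave its lowest p, 0.0714, for *Cilp* and *Clu*, where the smallest possible was 0.0357.

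S6 set *Cytl1* in all joint cells. *Cytl1* was at 139.2 CPM in H3, 456.1 CPM in H4, and 2988.9 CPM in H7, and in CIA mice at 11 CPM in S1 (7 UMIs), 0 in S3, 4.2 CPM in S5 (5 UMIs), 1449.1 CPM in S6 (91 UMIs), and 26 CPM in S8 (2 UMIs). The CIA mice other than S6 thus all lay below the healthy mice. Without S6 the log2 fold change was -6.96 (adjusted p = 0.0179 in edgeR's test), and without H7 it was -0.35. With the tag as a term it was -2.56, and in the mice of the tag CIA alone -1.96. Of the few UMIs in S1 and S5, 4 and 5 lay in cells labelled endothelial, although 0 lay in fibroblasts. *Clu* also passed without S6 (log2 fold change -4.09, adjusted p = 0.047 in edgeR's test), with 217.1, 1560.7, and 2029.7 CPM in the healthy mice and 137.8, 48.6, 44.2, 493.7, and 13 CPM in S1, S3, S5, S6, and S8.

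**Figure D3:**
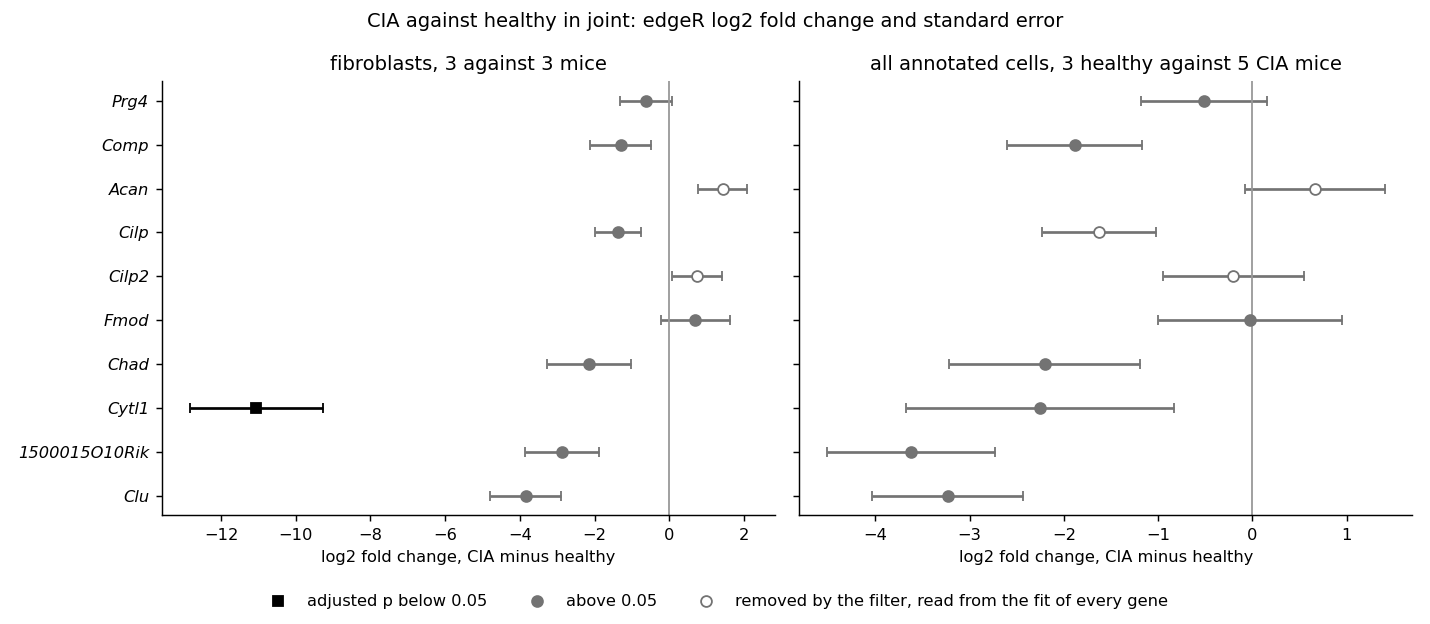
Log2 fold change of CIA over healthy (x axis) with its standard error as bars, in joint fibroblasts (left, 3 against 3 mice) and in all annotated joint cells (right, 3 healthy and 5 CIA mice). The 1 square marks *Cytl1* in fibroblasts (adjusted p = 0.0282), whose fitted value is no bound because its CIA counts were 0, and open circles mark genes read from the fit of every gene.

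The members were then followed within cells. Of 603 joint fibroblasts, 124 held none of the 10 genes, 191 held 1, and 288 (47.8%, interval 43.7%-51.8%) held at least 2, of which 71 held 5 or more. With each cell thinned to 400 UMIs the share with at least 2 was 30.2%. By mouse it was 28.8% in H3, 55.6% in H4, 60.5% in H7, 45.1% in S1, 16.1% in S3, 63.1% in S5, 77.8% of 9 cells in S6, and 0 of 4 cells in S8. The groups thus overlapped, and the fitted mice with the lowest share, H3 and S3, both carried the tag 2CIA. Holding cells were deeper, for *Comp* in CIA mice at a median of 1374 against 991.5 UMIs, and the part of depth in the shared detection was not tested beyond the thinned share.

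Pairs of members were compared by the Jaccard overlap, the cells with both genes divided by the cells with either, as a description. In healthy fibroblasts the highest overlap was between *Chad* and *Clu* (0.43), which shared 18 of 23 and 37 cells. *Comp* and *Prg4* followed at 0.41, *1500015O10Rik* and *Clu* at 0.39, *Chad* and *1500015O10Rik* at 0.39, and *Cytl1* and *1500015O10Rik* at 0.35. *Chad*, *Clu*, *1500015O10Rik*, and *Cytl1* thus recurred among the healthy pairs, and all 8 healthy cells with *Acan* held *Cytl1*. In CIA fibroblasts the highest overlap was between *Comp* and *Fmod* (0.42, 91 cells), followed by *Comp* and *Prg4* (0.37) and *Fmod* and *1500015O10Rik* (0.34). These values were pooled over mice of unequal depth, and their difference between groups was not tested.

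**Figure D4:**
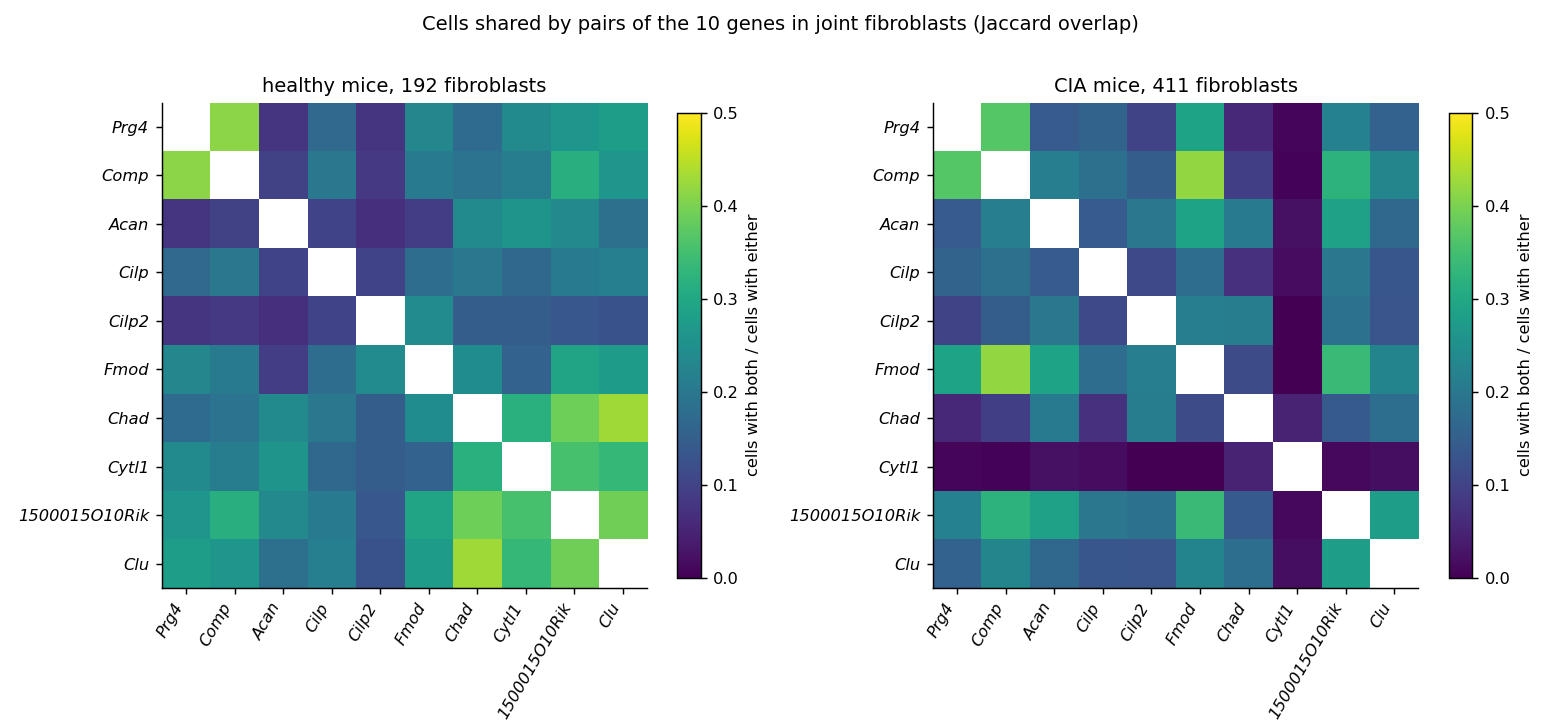
Jaccard overlap of the cells that held each pair of the 10 genes, in 192 healthy (left) and 411 CIA (right) joint fibroblasts, on a scale from 0 to 0.5. The brightest squares were *Chad* with *Clu* in healthy mice and *Comp* with *Fmod* in CIA mice, and the column of *Cytl1* is dark in CIA mice, where 2 cells held it.

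Among 8014 genes held by at least 10 joint fibroblasts, the genes whose cells overlapped most with those of each member were as follows. For *Cytl1* they were *Chad* (0.23), *Clec3a* (0.19), and *Cpe* (0.19), and for *Chad* they were *Clec3a* (0.44), *3110079O15Rik* (0.38), and *Scrg1* (0.36). *Clec3a* encodes a cartilage lectin, and 22 of its 30 cells held *Chad*. For *Acan* they were *Hapln1* (0.36), which encodes the protein that links aggrecan to hyaluronan, *Scrg1* (0.34), and *1500015O10Rik* (0.27). For *Clu* they were *1500015O10Rik* (0.31), *Chad* (0.28), and *Spp1* (0.26), and for *1500015O10Rik* they were *Fmod* (0.33), *Spp1* (0.32), and *Comp* (0.32). The tendon gene *Thbs4* (0.34) stood beside *Comp* (0.36) and *Col11a1* (0.34) for *Fmod*, and *Tnmd* (0.21), another tendon gene, beside *Col11a1* (0.26) and *Fmod* (0.22) for *Cilp2*. For *Cilp* they were *Mfge8* (0.22), *1500015O10Rik* (0.20), and *Col6a1* (0.20). For *Prg4* (*Dcn* 0.58, *Crip1* 0.56, and *mt-Rnr2* 0.55) and *Comp* (*Cst3* 0.50, *Bgn* 0.49, and *Sparc* 0.48) they were genes held by most fibroblasts.

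Partner genes of the same tissues gave a mixed picture in joint fibroblasts. Of 22 cartilage matrix and chondrocyte genes, 7 passed the filter and 0 were called, 3 with positive and 4 with negative fold changes, at a median log2 fold change of -0.59 beside 0.06 over all 1014 genes. *Col2a1* was at 0 UMIs in H3, 2 in H4, and 10 in H7, and at 587 in S1, 15 in S3, and 192 in S5. The CPM overlapped, since H7 (258.8 CPM) lay above S3 (218.6 CPM), and the log2 fold change was 3.84 (SE 1.17, adjusted p = 0.144 in edgeR's test). It thus differed in sign from the fitted values of *Chad* and *Cytl1*. *Ecm1* (-1.07) and *Cd9* (-0.59), the other list members with most UMIs, were not called. Over all joint fibroblasts, healthy and CIA UMIs were 19 and 325 for *Col11a1*, 12 and 93 for *Hapln1*, and 1 and 59 for *Cnmd*. They were 0 and 47 for *Matn3*, 51 and 113 for *3110079O15Rik*, 24 and 64 for *Scrg1*, and 33 and 1 for *Col10a1*. For *Sox9* they were 32 and 154, for *Col11a2* 2 and 68, for *Col9a1* 0 and 41, for *Col9a2* 1 and 27, and for *Col9a3* 2 and 33. For *Epyc* they were 4 and 34, for *Ucma* 4 and 30, for *Matn4* 2 and 23, and for *Mia* 3 and 21. The fitted fibroblasts held 166413 UMIs in healthy and 565258 in CIA mice. Relative to these totals, most genes of the list had more UMIs in CIA fibroblasts, while *Cd9*, *Ecm1*, *3110079O15Rik*, *Scrg1*, and *Col10a1* had fewer. These sums over mice were not tested.

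Lists of neighbouring tissues were read in the same fit. Of 10 synovial lining genes 4 were tested and 0 called, at a median of 0.16, and of the most abundant, *Hbegf* stood at 0.03, *Htra1* at 0.29, and *Ugdh* at 0.41. Of 9 sublining genes 6 were tested and 0 called, at a median of -0.15, with *Apod* at -2.85 (adjusted p = 0.115), *Cxcl12* at 0.17, and *Ly6a* at -0.22. Of 8 tendon and ligament genes 4 were tested, at a median of 0.33, and *Tnc*, which encodes the matrix protein tenascin C, rose (log2 fold change 5.05, adjusted p = 0.0281). *Tnc* had 1 UMI in healthy and 159 in CIA fibroblasts. It passed the filter through the CIA mice, so a rise followed from its being tested. *Angptl7* was at -4.16 (adjusted p = 0.0509) in fibroblasts and fell by 4.34 on the log2 scale in all joint cells (adjusted p = 0.0114), while *Thbs4* was at 1.70 (adjusted p = 0.325), and *Tnmd* was removed by the filter. Of 11 matrix-degrading enzymes and their inhibitors 8 were tested, at a median of 0.05, and *Mmp3*, a stromelysin that cleaves aggrecan among other proteins, and its inhibitor *Timp1* rose (4.03, adjusted p = 0.0282, and 2.91, adjusted p = 0.0495), while *Timp2* was at -0.26. *Mmp3*, too, passed the filter through the CIA mice, so a rise was favoured by its being tested. Of bone genes *Ibsp* (0.79) and of osteoclast genes *Ctsk* (0.05) were the 1 tested member each, and neither was called, while *Alpl*, *Runx2*, *Acp5*, and *Atp6v0d2* were removed by the filter. Of the fibroblast markers *Gsn*, which encodes the actin-severing protein gelsolin, fell in fibroblasts (by 3.85 on the log2 scale, adjusted p = 0.0282) and in all joint cells (by 3.96, adjusted p = 0.00134). These p-values came from edgeR's test, and in fibroblasts 0 genes were called without H4 or without H7, so the calls of *Tnc*, *Mmp3*, *Timp1*, and *Gsn* there did not hold without either mouse.

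*Mmp3* was at 95, 449, and 129.4 CPM in H3, H4, and H7 and at 2973.4, 6615, and 2790.3 CPM in S1, S3, and S5. The groups did not overlap, an order that the filter on low counts favoured. S6, whose *Cytl1* lay within the healthy range, had *Mmp3* at 1931.8 CPM in its 9 fibroblasts, above all healthy mice. *Timp1* was at 158.3, 232.2, and 310.5 CPM in healthy mice and at 988, 3482.3, and 1024.6 CPM in S1, S3, and S5.

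Fibroblasts of skin and muscle showed whether the members were shared by fibroblasts of other organs. The fit held 6 joint, 9 skin, and 8 muscle samples, healthy and CIA, with disease as a term. The filter kept *Comp*, *Prg4*, *Fmod*, and *1500015O10Rik*, which passed it through the joint, so that a higher level in joint followed from their being tested and the p-values below are no independent support. All 4 were higher in joint than in skin, with log2 fold changes of 5.18, 3.82, 7.95, and 5.40 (adjusted p = 4.9e-06, 0.0006, 0.000283, and 1.66e-05 in edgeR's test), where 15.7% of 842 genes were called higher and 11.6% lower in joint. The other 6, read from the fit of every gene, were also called higher, where 2.77% of 22443 genes were. Of *Cytl1*, *Chad*, and *Fmod* 0 UMIs were counted in the 9 skin samples, so that pooled over all samples they were at least 38-fold, 22.9-fold, and 62.9-fold higher in joint, with 3 UMIs over the skin samples in place of 0. *Cytl1* had UMIs in only 3 of the 6 joint samples, the healthy ones, so its bound does not describe the fitted CIA joints, which also held 0. *Chad* and *Fmod* had UMIs in 5 of the 6. For *Acan* and *Cilp2*, 1 UMI each was counted in skin, and the ratios of 47.3 (95% interval 8.33-1884) and 34 (5.93-1357) are accordingly loose. Both intervals come from UMIs pooled over samples and cover counting error only, not the spread between mice.

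Against muscle the differences were smaller in number. *Comp*, *Prg4*, and *1500015O10Rik* were higher in joint by log2 values of 4.30, 4.91, and 4.41 (adjusted p = 0.000221, 0.000968, and 0.000968 in edgeR's test), while *Fmod* did not pass (2.58, adjusted p = 0.0968). Of 842 genes 2.38% were called higher and 1.07% lower in joint. In the fit of every gene, where 0.815% of genes were called higher, *Cytl1* (3.48), *Acan* (4.06), *Cilp2* (3.78), *Chad* (4.41), and *Clu* (3.51) were called and *Cilp* was not (1.67, adjusted p = 0.102). With the mouse as a replicate block, since organs came from the same mice, 12 genes instead of 29 were called between joint and muscle. In healthy mice alone, *Acan* and *Cilp2* did not pass in either organ comparison. Other calls also depended on the setting. Against skin, *Cytl1* and *Chad* each passed in 18 of 19 alternatives. Against muscle, *Chad* and *Clu* each passed in 18 and *Cytl1* in 16 of 19. Without H7 *Cytl1* did not pass against muscle (1.66, adjusted p = 0.514 in edgeR's test), and without H4 *Fmod* did (3.39, adjusted p = 0.043). For *Prg4*, *Acan*, and *Chad*, muscle values came mostly from S5, whose 174 of 377 muscle fibroblasts held 91 of 121 UMIs of *Prg4* and all 4 UMIs of *Acan* and 5 of *Chad*. This did not hold for *Cilp*, which was highest in H3 among healthy mice (441.2 CPM) and in S2 among CIA mice (274.7 CPM).

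**Figure D5:**
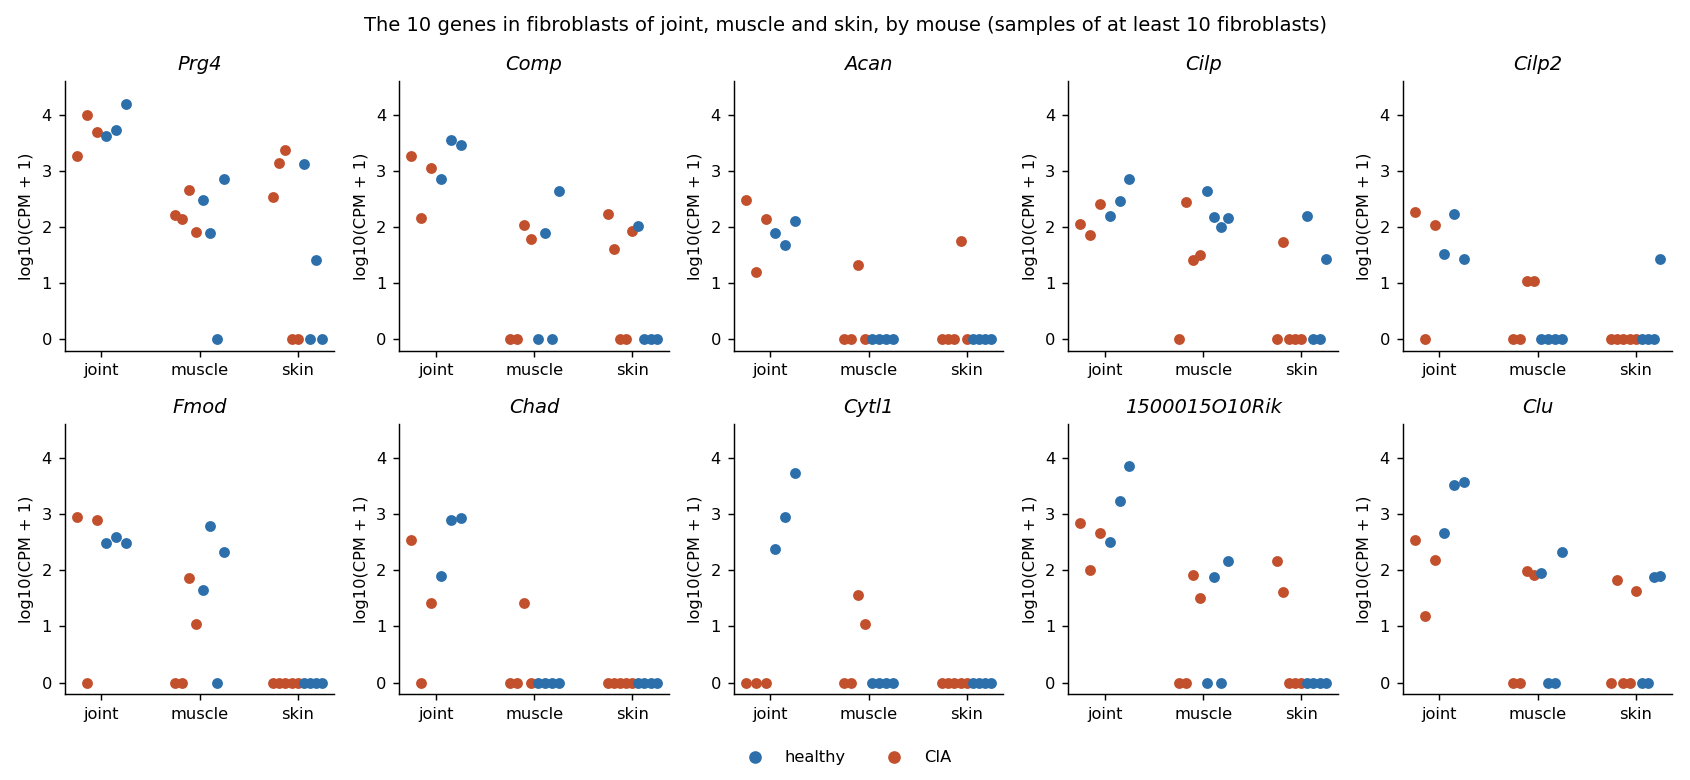
Level of each gene in fibroblasts by organ, as log10 of CPM plus 1 (y axis), 1 point per sample of at least 10 fibroblasts, healthy in blue and CIA in red. Joint samples lay above most skin and muscle samples for *Prg4*, *Comp*, and *1500015O10Rik*, and *Chad*, *Cytl1*, and *Fmod* were at 0 in all skin samples.

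Between CIA and healthy mice, differences of the members did not pass the threshold in these organs. In skin fibroblasts 0 of 349 genes were called (0%), with 31 at an unadjusted p under 0.05 and 1 by DESeq2, and in muscle fibroblasts 0 of 173 (0%), with 11 at an unadjusted p under 0.05 and 3 by DESeq2. All 10 members were removed by the filter in both. In the fit of every gene, *Prg4* in skin had the lowest adjusted p, 0.25, with 345.2, 1399.4, 2312, 0, and 0 CPM in S1, S2, S3, S5, and S8 and 1322.5, 0, 24.8, and 0 CPM in H3, H4, H6, and H7. The groups overlapped, and the value of H3 came from 1 cell with 25 UMIs. In muscle all adjusted p were at least 0.666.

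Outside fibroblasts, *Clu* was the member held most widely in the other organs. It was held by 20.4% of muscle, 17.5% of 40 skin, and 21.4% of 14 lung endothelial cells, against 7.69% of muscle and 2.78% of skin fibroblasts. In counts, *Clu* was held by 49 of 240 muscle endothelial cells (82 UMIs) and *Cytl1* by 26 of them (38 UMIs), against 8 UMIs of *Cytl1* in the muscle fibroblasts that were fitted. The endothelial label thus held more of the *Cytl1* of muscle than the fibroblast label, in contrast to the joint. In lung, 12 UMIs of *Clu*, 2 of *Prg4*, 1 of *Cilp2*, and 0 of the other 7 genes were counted in 814 cells, and in spleen 7 of *Prg4*, 2 of *Comp*, 1 of *Clu*, and 0 of the rest in 3320 cells. A count of 0 allows a share of cells with a UMI of up to 0.369% in lung and 0.0904% in spleen.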

How the data were processed

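According to the study's methods, the authors used STAR for alignment to GRCm38 and the Drop-seq pipeline for counting, and deposited unnormalized UMI counts per gene and cell, with limits on reads, transcripts, genes, and mitochondrial share per cell. They also deposited cell type labels for 12096 of 13240 cells, which were used as given. No doublets were removed here, and the steps before counting could not be repeated. UMIs were summed per mouse over cells of a label. Sums of at least 10 fibroblasts were fitted with edgeR 4.0.16 in R 4.3.3 (TMM factors, filterByExpr, quasi-likelihood test, Benjamini-Hochberg adjustment over all genes tested, threshold 0.05). The code was also run on simulated counts with 1 fixed spread for all genes, which does not bear on calls of genes as variable as *Cytl1*. Members removed by the filter were read from a fit of every gene with at least 1 UMI. CPM are plain library-size values. DESeq2 1.42.0, other factors, the sample name tag, and each mouse left out were alternatives. Mouse numbers pair organs of 1 animal. Deviations of same-mouse samples from their group means correlated between -0.117 and 0.0629 (18 pairs). Exact tests used scipy 1.17.1. Named genes were the 10 members, list genes past the threshold, the 3 list genes with most UMIs in joint, and the 3 nearest by Jaccard overlap. *Col10a1*, *Cnmd*, *Matn3*, the other cartilage genes given only as sums, and the cells and endothelial markers given singly fall outside this rule. They were chosen after their values were seen. The members and lists were chosen with earlier results of these data known.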

Additional observations from a re-analysis of the deposited data

Results flagged for a closer look

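Samples were examined for values far from the rest of their group in groups of 4 or more mice, and 14 of 37 groups tested had one, where chance flags about 1 in 20 groups if values are normally distributed. These counts are sparse, a group with UMIs in 1 mouse alone always has a far sample, and groups share mice, so the 2 rates are not comparable. In all joint cells of CIA mice, S6 stood apart with *Cytl1* at 1449 CPM (91 UMIs, next mouse 26.0 CPM) and *Clu* at 493.7 CPM (31 UMIs, next mouse 137.8 CPM).

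In fibroblasts of other organs most of the remaining values rested on few UMIs. In muscle of CIA mice they were *Acan* at 20.36 CPM (4 UMIs), *Chad* at 25.46 CPM (5 UMIs), and *Fmod* at 71.28 CPM (14 UMIs) in S5 and *Cilp* at 274.7 CPM (4 UMIs) in S2, and in muscle of healthy mice *Cilp* at 441.2 CPM (10 UMIs) in H3. In skin of CIA mice they were *1500015O10Rik* at 148 CPM (6 UMIs) in S1, *Acan* at 55.62 CPM (1 UMI) in S5, and *Cilp* at 53.31 CPM (4 UMIs) in S2. In skin of healthy mice they were *Cilp* at 158.7 CPM (3 UMIs), *Comp* at 105.8 CPM (2 UMIs), and *Prg4* at 1322 CPM (25 UMIs, 1 cell) in H3 and *Cilp2* at 26.43 CPM (1 UMI) in H7.

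S6 also had too few fibroblasts to be fitted in joint and skin. *Prg4* reached 18010 CPM (345 UMIs) in its 9 joint fibroblasts, above the highest healthy mouse (15450 CPM), and 12370 CPM (69 UMIs) in its 8 skin fibroblasts, where the highest healthy mouse had 1322 CPM.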

How the results depend on the processing

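In joint fibroblasts the number of genes called (17) was 100 in the fit of every gene, 41 with DESeq2, 8 with plain library size, 73 in mice of the tag CIA alone, where the 1 CIA mouse, S5, was assumed to vary like the others, and 0 to 43 with 1 mouse left out (1 without H3, 0 without H4 or H7, 10 without S1, 43 without S3). In all joint cells (3) it was 66, 46, and 1 under the fit of every gene, DESeq2, and the tag CIA alone, 6 with cells that had no label, and 2 to 7 with 1 mouse left out (5 without H3 or S8, 2 without H4 or H7, 7 without S6). In skin fibroblasts (0) it was 12 in the fit of every gene and 1 with DESeq2, and in muscle fibroblasts (0) it was 2 and 3. Between joint and skin (230) it was 734 in the fit of every gene, 144 with at least 5 cells per mouse, 78 in healthy mice, and 129 (without S5) to 238 with 1 mouse left out. Between joint and muscle (29) it was 257, 58 with DESeq2, 18 with at least 20 cells, 8 in healthy mice, 13 (without S6) to 47 (without S3) with 1 mouse left out, and 12 with the mouse as a replicate block, which changed no call of a member. No paired analysis was possible because of the design in CIA against healthy, where the groups share no mouse.

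The sign changed for *Cilp2* in joint fibroblasts of the tag CIA alone (-0.095), and in all joint cells for *Acan* with the tag CIA alone (-0.35) and as a CPM difference (-5.40, exact p = 0.893) and for *Fmod* in the fit of every gene (0.23). In skin it changed for *Prg4* in the tag CIA alone (-1.75). In muscle it changed for *Comp* with at least 20 cells (2.36), for *Cilp2* with DESeq2 (-0.027), and with DESeq2, RLE factors, and plain library size for *Prg4* (-0.20, -0.16, and -0.27), *1500015O10Rik* (-0.44, -0.027, and -0.10), and *Clu* (-0.38, -0.14, and -0.20). With 1 mouse left out, signs changed within these ranges: in joint fibroblasts *Cilp2* -0.20 to 2.35 and *Prg4* -1.29 to 0.073; in all joint cells *Acan* -0.37 to 1.09, *Cilp2* -1.07 to 1.24, *Fmod* -0.74 to 0.29, and *Prg4* -0.90 to 0.45; in muscle *1500015O10Rik* -0.71 to 1.60, *Clu* -0.18 to 1.30, *Comp* -1.06 to 2.07, and *Prg4* -1.01 to 1.17; and in skin *Cilp* -3.17 to 0.93 and *Clu* -1.89 to 0.062. The cause of these changes was not tested.

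Plain library size moved the median log2 fold change of all genes from 0.02 to -0.18 in all joint cells, from 0.03 to -0.14 between joint and skin, and from 0.09 to -0.09 between joint and muscle. In joint fibroblasts *Clu* passed in 3, *1500015O10Rik* in 2, and *Chad* in 1 of 14 alternatives, which include the fit with a single CIA mouse. In all joint cells *Clu* passed in 3, *1500015O10Rik* and *Cytl1* in 2 each, and *Cilp* in 1 of 15 alternatives. *Cytl1* in joint fibroblasts passed in 9 of 14 alternatives, 1 of them with a single CIA mouse, with log2 values of -11.73 to -1.25. Thinned to 400 UMIs, the share of joint cells with a UMI was 1.79% in place of 2.83% for *Cytl1*, 9.91% for *Comp* (16.9%), 1.08% for *Acan* (2.69%), 15.4% for *Prg4* (24.1%), 1.35% for *Cilp* (3.99%), 0.897% for *Cilp2* (2.11%), 1.48% for *Chad* (2.33%), 4.35% for *Fmod* (7.58%), 3.54% for *1500015O10Rik* (6.95%), and 3.86% for *Clu* (6.01%), and 30.2% of joint fibroblasts held at least 2 members (47.8%).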

Other observations

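*Cytl1* was also detected outside fibroblasts in the joint. In healthy mice it was held by 6.82% of 44 endothelial cells, 6.9% of 29 T cells, 8.33% of 36 granulocytes, and 6.56% of 61 macrophages, beside 16.1% of 192 fibroblasts, and in CIA mice by 3.74% of 214 endothelial cells, 3.03% of 132 T cells, 0.138% of 723 granulocytes, and 0.412% of 243 macrophages, beside 0.487% of 411 fibroblasts. After thinning to 400 UMIs, 10.9% of healthy fibroblasts, 6.82% of healthy endothelial cells, 0% of healthy T cells, and 2.78% of healthy granulocytes held it, beside 0.243% of fibroblasts, 2.8% of endothelial cells, 2.27% of T cells, and 0.138% of granulocytes in CIA mice. The order was not tested, and in the cells other than fibroblasts it rested on 1 to 8 holding cells per group.

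Partner genes split within the cells that held a member. Of 83 healthy fibroblasts with *Comp*, 36.1% held *Angptl7* and 8.43% held *Tnmd*, and of 193 CIA fibroblasts with *Comp*, 11.9% held *Angptl7* and 28.5% held *Tnmd*. In fibroblasts without *Comp*, the shares were 18.3% and 2.75% in healthy and 5.05% and 5.96% in CIA mice. *Col10a1*, a collagen of hypertrophic chondrocytes, had 33 UMIs in healthy and 1 in CIA fibroblasts, while *Col2a1* had 12 and 800 UMIs. These are sums over mice, and the fitted fibroblasts held 166413 UMIs in healthy and 565258 in CIA mice. Most of the *Col2a1* UMIs lay in S1, and a difference of *Col10a1* between the groups was not tested over mice.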
